A study of Homo sapiens and Mus musculus with 28 samples.

Results

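The effect of iR4 on SCC1 cells, a human squamous carcinoma line, was measured by mRNA sequencing in 3 libraries of cells labelled iR4 (replicates 1 to 3) and 3 libraries of cells labelled Vehicle (replicates 1 to 3), which are 6 of the 28 libraries of the series. The labels give neither the dose of iR4 nor the time of exposure, neither group carries a labelled genetic change, and all 6 libraries come from 1 cell line. Another group of 3 libraries, SCC1 cells labelled H151_iR4, entered the same model only to add to its estimate of the spread. For the comparison with loss of the gene itself, 3 libraries each of the REXO4-knockout groups R4KO_1 and R4KO_2 were set against 3 libraries of control cells labelled Ctrl, all of SCC1 cells and all labelled Vehicle. The model for that comparison also held 3 libraries each of SCC1 cells labelled KO_2_H151 and KO_2_BX_795. These entered its filter, scaling and estimate of the spread, but no contrast. The labels do not say whether replicates are separate cultures, so the p-values measure only the spread between these libraries, which may be technical.

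REXO4 is a nucleolar RNA exonuclease of the DEDDh family, and the series asks how it acts on R-loops, which are RNA:DNA hybrids with a displaced DNA strand, when their RNA carries the methylated base m6A. Nucleic acids that reach the cytosol are detected by sensors such as cGAS and RIG-I, which lead to interferon and to interferon-stimulated genes. Cells under other stresses use separate programs: heat shock factors induce chaperones, the transcription factor ATF4 induces amino acid and redox genes when translation initiation is curbed, and MAP kinase signalling induces its own inhibitors.

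The 6 libraries held between 18.03 and 21.65 M counts (M, counts in units of 1e6) over 35135 Ensembl identifiers, and 14000 genes had enough counts to be tested. The first principal component held 85.9% of the variance and separated the 3 iR4 from the 3 Vehicle libraries. Replicates differed by a median of 0.07 to 0.09 on the log2 scale per gene. Levels are given as CPM, the counts of a gene per 1e6 counts of its library, scaled between libraries by edgeR's TMM factors, and fold changes are log2 values of iR4 over Vehicle from edgeR's quasi-likelihood test with Benjamini-Hochberg adjustment over all 14000 genes. A gene is said to rise or fall where its adjusted p was below 0.05.

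The change was broad: 5197 genes rose (37.1% of those tested) and 4875 fell (34.8%), and in 10329 genes (73.8%) the iR4 and Vehicle libraries did not overlap. At these rates a call alone says little of a gene list, so list counts are read against these shares and against the larger changes. Genes that rose at least 2-fold numbered 1201 (8.58%), and 411 (2.94%) fell at least 2-fold; at 4-fold or more the numbers were 285 and 51. The median log2 fold change over all genes tested was 0.02. TMM scaling sets this centre near 0, so rises and falls are relative to the other genes.

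**Figure D1:**
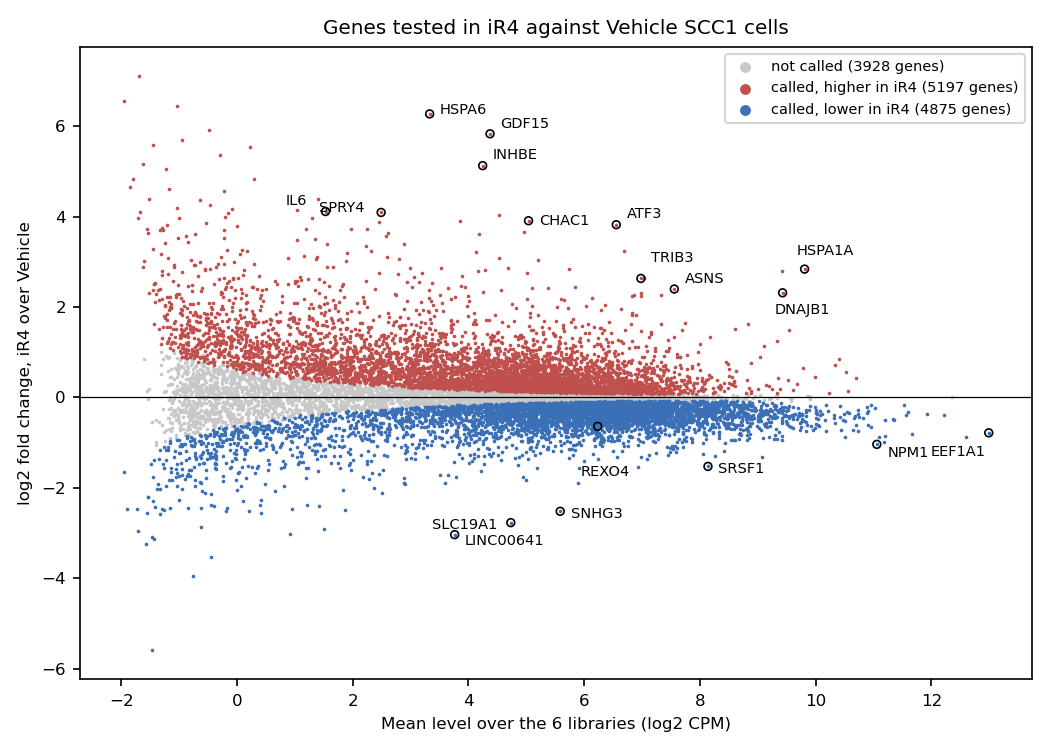
Each point is 1 of the 14000 genes tested, with its mean level over the 6 libraries (log2 CPM) on the x axis and its log2 fold change, iR4 over Vehicle, on the y axis; red genes rose and blue genes fell at an adjusted p below 0.05. The largest changes at moderate and high level are rises, with HSPA6 at 6.27 and GDF15 at 5.83, and genes at the high end of the level axis, such as NPM1 and EEF1A1, lie below 0.

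REXO4 itself (ENSG00000148300, chr9:133406059-133418096, hg38, minus strand) had 61.8, 56.9 and 61.9 CPM in the iR4 libraries, against 90.1, 96.4 and 95.5 CPM in the Vehicle libraries. All 3 iR4 libraries lay below all 3 Vehicle libraries, with means of 60.2 ± 2.84 CPM in iR4 and 94.0 ± 3.43 CPM in Vehicle cells (SD, n = 3 each). The log2 fold change was -0.64 (SE 0.04, edgeR adjusted p = 9.1e-13). Among the 16 tested DEDDh exonucleases and related RNA exonucleases 4 rose and 7 fell, with a median log2 fold change of -0.04. Nucleolar ribosome biogenesis factors fell in 59 of 59 tested genes, with a median of -0.73. Whether the fall of REXO4 is particular to this gene was not tested. The largest change among them was in ISG20, an interferon-inducible exonuclease, which had 22.1, 17.5 and 19.9 CPM in iR4 libraries, against 2.51, 2.43 and 2.17 CPM in Vehicle libraries, a log2 fold change of 3.07 (SE 0.12).

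Of the 29 tested members of the heat shock list 17 rose, 9 of them at least 2-fold, and 8 fell (median log2 fold change 0.37). HSPA6, an HSP70 protein that is nearly silent in unstressed cells, had 76.6, 64.0 and 124 CPM in the iR4 libraries, against 0.749, 1.19 and 1.45 CPM in the Vehicle libraries. The groups did not overlap, and iR4 replicate 3 was the highest; the log2 fold change was 6.27 (SE 0.26, edgeR adjusted p = 6.8e-17) and stayed at 5.94 without that library. The RefSeq promoter of HSPA6 is shown because this gene had the largest rise among genes with a mean level of at least 2 on the log2 CPM scale. It covers 250 bases before to 50 bases after the gene's start (GRCh38.p14, chr1:161524290-161524589, plus strand), with both matches to the heat shock element core in capitals, the first of them 180 bases before the start.
HSPA6: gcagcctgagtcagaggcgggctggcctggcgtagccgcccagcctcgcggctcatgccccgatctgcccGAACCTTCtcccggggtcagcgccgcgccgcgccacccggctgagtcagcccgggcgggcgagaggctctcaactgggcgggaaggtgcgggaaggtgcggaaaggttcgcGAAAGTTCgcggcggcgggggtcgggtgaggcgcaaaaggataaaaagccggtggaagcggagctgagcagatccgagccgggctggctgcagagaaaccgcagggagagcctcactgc
The core was searched as GAANNTTC, which reads the same on both strands. It was found in the promoters of 10 of the 26 heat shock list members with a RefSeq promoter (38.5%), and in 6.86% of all 27305 gene promoters of that table and 4.60% of those of tested genes.

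HSPA1A and HSPA1B, near-identical stress-inducible HSP70 genes whose reads cannot be assigned with certainty to either, moved together. HSPA1A had 2235, 1991 and 3049 CPM in iR4 libraries, against 312, 323 and 382 CPM in Vehicle libraries, a log2 fold change of 2.84 (SE 0.11). DNAJB1, the HSP40 partner of the inducible HSP70s, had 1413, 1323 and 1915 CPM in iR4 libraries, against 289, 302 and 344 CPM in Vehicle libraries, a log2 fold change of 2.31 (SE 0.09). In each of these genes iR4 replicate 3 stood above the other iR4 libraries, and the lowest iR4 library stood far above the highest Vehicle library. BAG3, an HSP70 co-chaperone, rose by 1.02 and HSPH1, an HSP110 protein, by 0.64. Among the constitutive chaperones HSPA8, the housekeeping HSP70, fell by 0.47 and HSP90AB1, the constitutive cytosolic HSP90, fell by 0.80, whereas HSP90AA1, its inducible relative (log2 fold change 0.00), and HSPB1, a small heat shock protein (0.02, adjusted p = 0.54), were not called. The list also holds CHAC1, which is better known as an ATF4 target.

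Genes of the ATF4 stress response rose together, and its pro-apoptotic and amino acid branches were both among them. Of 38 members, all tested, 30 rose (20 of them at least 2-fold) and 5 fell, with a median log2 fold change of 1.10. ATF4 itself, which is controlled mainly at translation, had 519, 511 and 517 CPM in iR4 libraries, against 392, 408 and 379 CPM in Vehicle libraries, a rise of 0.39 (SE 0.03). Its targets moved much further. CHAC1, which degrades glutathione, had 122, 115 and 144 CPM in iR4 libraries, against 8.45, 8.38 and 8.54 CPM in Vehicle libraries, a log2 fold change of 3.91 (SE 0.08, edgeR adjusted p = 2.4e-22). DDIT3, which encodes the pro-apoptotic factor CHOP, had 106, 101 and 121 CPM in iR4 libraries, against 9.41, 8.28 and 8.50 CPM in Vehicle libraries, a log2 fold change of 3.65 (SE 0.07). ASNS, asparagine synthetase, had 436, 408 and 456 CPM in iR4 libraries, against 75.6, 82.3 and 88.8 CPM in Vehicle libraries, a log2 fold change of 2.40 (SE 0.05). No iR4 library came near a Vehicle library in any of these genes, and the spread within each group was small against the gap between them.

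Other rising members were TRIB3, a pseudokinase that restrains ATF4 and AKT signalling (2.63), PPP1R15A, the stress-induced subunit of the eIF2α phosphatase (2.65), SESN2, an inhibitor of mTORC1 (2.45), and NUPR1, a stress-induced chromatin protein (3.89). The 5 members that fell were ATF5 (-0.89), ALDH18A1 (-0.74), SLC7A5 (-0.51), MTHFD2 (-0.25) and SLC3A2 (-0.16); ATF5 is a relative of ATF4, ALDH18A1 makes proline precursors, SLC7A5 with its partner SLC3A2 carries large amino acids and MTHFD2 acts in mitochondrial folate metabolism. Aminoacyl-tRNA synthetases, of which several are ATF4 targets, were divided: 6 of 20 rose and 10 fell, with AARS1 (alanine) at 1.14 and FARSB (phenylalanine) at -1.07. The list of endoplasmic reticulum chaperones and unfolded protein response genes did not follow the heat shock list. Of its 28 genes 7 rose and 17 fell, with a median of -0.19. Tested against a minimum fold of 1.2, 5 rose and 7 fell. XBP1, a transcription factor of the unfolded protein response, rose by 1.23, and DNAJB9 and HERPUD1 rose by 0.94 each. HSP90B1, the HSP90 of the endoplasmic reticulum, fell by 0.56. HSPA5, the main chaperone there, had 1559, 1454 and 1787 CPM in iR4 libraries, against 1435, 1436 and 1457 CPM in Vehicle libraries; these overlap, and its log2 fold change of 0.15 (adjusted p = 0.0072) came to 0.06 (adjusted p = 0.13) without iR4 replicate 3.

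The promoters of CHAC1 (GRCh38.p14, chr15:40953221-40953520, plus strand) and ASNS (chr7:97872359-97872658, minus strand) are shown because both genes rose strongly and each holds 1 match to the core of the amino acid response element that ATF4 binds. The match is in capitals, 209 bases before the start in CHAC1, where it lies on the opposite strand, and 68 bases before the start in ASNS.
CHAC1: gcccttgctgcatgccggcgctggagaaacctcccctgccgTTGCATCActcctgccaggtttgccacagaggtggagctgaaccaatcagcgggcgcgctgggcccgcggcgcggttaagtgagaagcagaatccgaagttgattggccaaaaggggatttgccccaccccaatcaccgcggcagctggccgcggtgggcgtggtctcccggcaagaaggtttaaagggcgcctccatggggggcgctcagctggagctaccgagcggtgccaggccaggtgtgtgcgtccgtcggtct
ASNS: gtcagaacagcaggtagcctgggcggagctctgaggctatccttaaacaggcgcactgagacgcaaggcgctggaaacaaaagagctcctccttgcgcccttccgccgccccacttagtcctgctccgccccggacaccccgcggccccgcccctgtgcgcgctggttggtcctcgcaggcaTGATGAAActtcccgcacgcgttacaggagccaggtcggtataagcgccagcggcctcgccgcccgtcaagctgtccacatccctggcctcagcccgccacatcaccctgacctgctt
The core was searched as TGATGNAA on both strands. It was present in 4 of the 31 list members with a promoter (12.9%: CHAC1, ASNS, PPP1R15B and SLC7A1), in 3.67% of all promoters, in 1.72% of those of tested genes and in 3.75% of the 880 promoters of genes that rose at least 2-fold. The window stops 250 bases before the start, so elements farther away or inside introns were not searched.

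Secreted factors of the stress response were among the largest changes. GDF15, a TGF-beta family hormone released by stressed cells, had 158, 134 and 169 CPM in iR4 libraries, against 2.84, 2.63 and 2.66 CPM in Vehicle libraries, a log2 fold change of 5.83 (SE 0.10, edgeR adjusted p = 7.2e-24). INHBE, an activin subunit, had 110, 102 and 123 CPM in iR4 libraries, against 2.51, 3.03 and 4.01 CPM in Vehicle libraries, a log2 fold change of 5.13 (SE 0.10). FGF21, a metabolic hormone known from liver, was low in both groups, with 2.33, 1.82 and 2.39 CPM in iR4 libraries, against 0, 0.149 and 0.145 CPM in Vehicle libraries. In all 3 genes the lowest iR4 library was many times the highest Vehicle library. Of 9 tested members of the stress hormone list 7 rose, all of them at least 2-fold, and none fell. This list also holds the EGF receptor ligands HBEGF (2.25) and AREG (2.19), which were among the 7. ADM (-0.05) and STC1 (0.06) were not called.

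**Figure D2:**
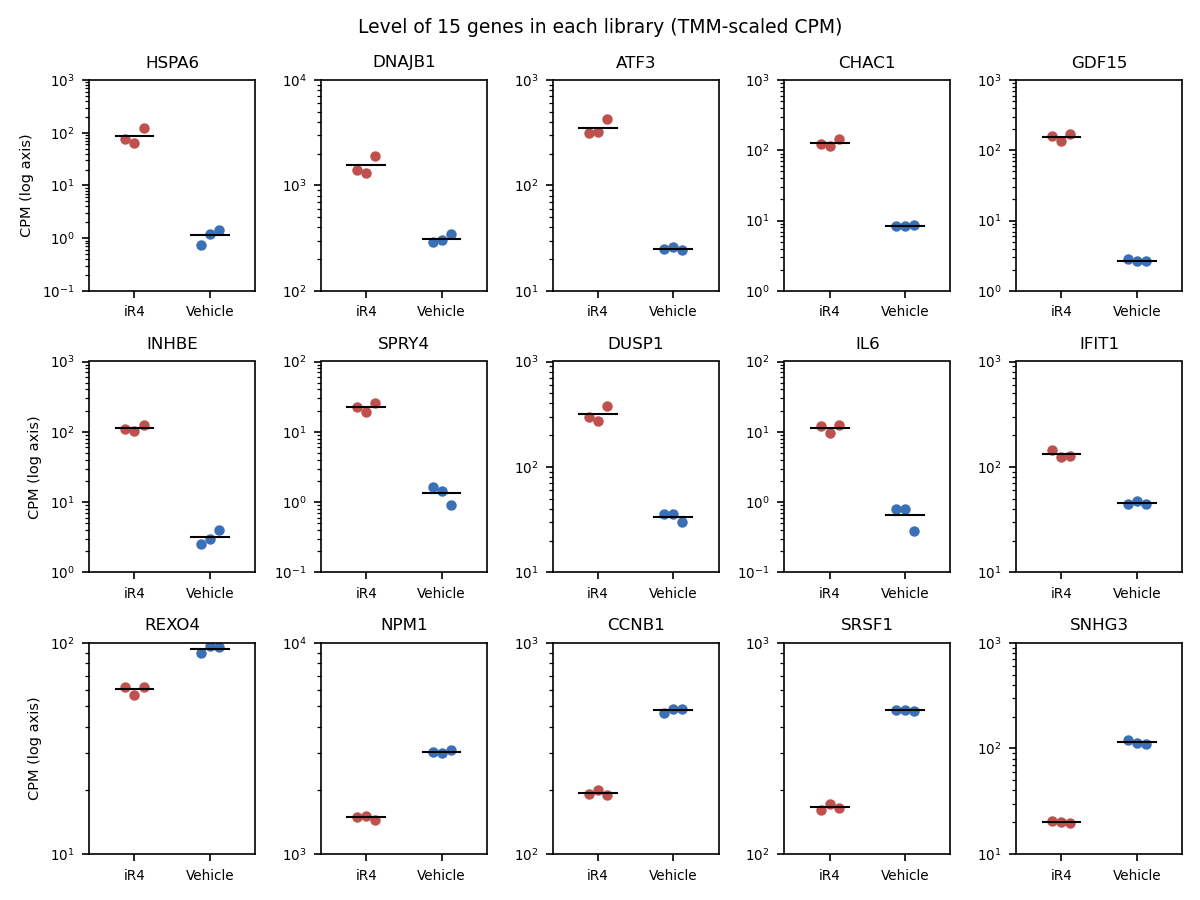
Level of 15 genes in each library, in TMM-scaled CPM on log axes, with 1 point per library (iR4 left, Vehicle right) and a bar at the group mean. In every panel the 3 iR4 libraries stand apart from the 3 Vehicle libraries, above them from HSPA6 to IFIT1 and below them for REXO4, NPM1, CCNB1, SRSF1 and SNHG3.

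Feedback inhibitors of MAP kinase signalling rose in most cases. Of 21 tested feedback genes 16 rose (11 at least 2-fold) and 3 fell, with a median of 1.68. SPRY4, a Sprouty inhibitor of receptor tyrosine kinase signalling, had 22.7, 19.4 and 25.7 CPM in iR4 libraries, against 1.66, 1.44 and 0.917 CPM in Vehicle libraries, a log2 fold change of 4.09 (SE 0.15). DUSP1, a phosphatase of p38, JNK and ERK, had 299, 274 and 377 CPM in iR4 libraries, against 35.7, 35.5 and 29.8 CPM in Vehicle libraries, a log2 fold change of 3.24 (SE 0.10). Both genes were separated without overlap. The related phosphatases DUSP4 (3.20), DUSP5 (3.08) and DUSP6 (2.21) rose too, while DUSP7 (-0.81) and DUSP2 (-0.27) fell.

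Among 28 tested immediate early genes 18 rose and 5 fell, with a median of 0.54. ATF3, a stress-induced repressor of the ATF family, had 318, 320 and 425 CPM in iR4 libraries, against 24.8, 25.9 and 24.6 CPM in Vehicle libraries, a log2 fold change of 3.82 (SE 0.09). JUN, the central AP-1 subunit, rose by 2.27, the FOS-related gene FOSL1 by 1.54 and the small MAF factor MAFF by 3.62. Not all members moved this way. EGR1, a zinc finger factor induced by growth factors, had 91.6, 63.5 and 87.7 CPM in iR4 libraries, against 231, 223 and 155 CPM in Vehicle libraries, a log2 fold change of -1.32 (SE 0.15). EGR2 (-1.38) and EGR3 (-0.86) also fell, whereas FOS (0.08, adjusted p = 0.64) and FOSB (-0.51, adjusted p = 0.10) were not called. The libraries of EGR1 and FOS were more scattered within groups than those of most genes named here, with Vehicle replicate 3 the lowest of its group in both.

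Inflammatory cytokines and chemokines, most of them low in Vehicle cells, rose. IL6, the main cytokine of the acute phase response, had 11.9, 9.67 and 12.5 CPM in iR4 libraries, against 0.802, 0.794 and 0.386 CPM in Vehicle libraries, a log2 fold change of 4.11 (SE 0.18). IL1A, an alarmin of epithelial cells, had 139, 127 and 164 CPM in iR4 libraries, against 21.8, 18.4 and 19.6 CPM in Vehicle libraries, a log2 fold change of 2.85 (SE 0.08). Both cytokines were far above the Vehicle range in every iR4 library. IL1B (2.86), IL11 (2.45) and CSF2 (2.57), which encodes the growth factor GM-CSF, rose as well. Of 15 tested genes of the IL-1, IL-6 and growth cytokine list 12 rose (9 at least 2-fold) and none fell, with a median of 1.42.

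Of 9 tested chemokines 7 rose, all at least 2-fold, and CXCL14, a homeostatic chemokine of squamous epithelium, fell by 0.72. With protein-coding genes split by level into 5 equal groups, 21.6% of the lowest group rose at least 2-fold, against 1.79% of the highest. The part of level in the rises of chemokines and cytokines was not tested. CXCL8, a neutrophil chemoattractant, stood at 2.86, 2.76 and 3.61 CPM in iR4 libraries, against 0.214, 0.198 and 0.241 CPM in Vehicle libraries, a log2 fold change of 3.79 (SE 0.30). The T cell chemoattractants were close to the limit of detection: CXCL10 had 6 counts over the iR4 libraries and 1 over the Vehicle libraries, a depth-adjusted ratio of 5.50 (95% exact interval 0.668 to 253), and CXCL11 had 22 counts in iR4 and 2 in Vehicle libraries, a ratio of 10.1 (2.48 to 88.5). Over the list of NF-kB subunits and feedback targets 15 of 18 rose, 2 fell and the median was 0.81; those that rose included TNFAIP3, which encodes the inhibitor A20 (2.80), and the non-canonical subunit RELB (2.26). PTGS2, the inducible cyclooxygenase, had 107, 90.4 and 117 CPM in iR4 libraries, against 15.5, 12.2 and 11.1 CPM in Vehicle libraries, a log2 fold change of 3.03 (SE 0.09).

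Interferon-stimulated genes rose by moderate factors, while interferon transcripts were hardly detected. Of 55 tested interferon-stimulated effectors 47 rose (17 at least 2-fold) and 4 fell, none of these by as much as 2-fold, with a median of 0.73. IFIT1, which binds RNA lacking cap methylation, had 145, 126 and 127 CPM in iR4 libraries, against 44.4, 48.0 and 44.6 CPM in Vehicle libraries, a log2 fold change of 1.54 (SE 0.05, edgeR adjusted p = 1.2e-18). OASL, which enhances RIG-I signalling, rose by 2.19, and ISG15, a ubiquitin-like modifier, by 1.33. RSAD2, the antiviral enzyme viperin, was low, with 4.002, 2.50 and 3.61 CPM in iR4 libraries, against 0.107, 0.0992 and 0.338 CPM in Vehicle libraries, a log2 fold change of 4.16 (SE 0.33). MX1, an antiviral GTPase and a common marker of the interferon response, was not called, with 1.76, 2.55 and 2.04 CPM in iR4 libraries, against 2.996, 2.88 and 2.17 CPM in Vehicle libraries (-0.35, adjusted p = 0.095). EPSTI1 (-0.66), TRIM14 (-0.38), IFITM3 (-0.22) and BST2 (-0.11) were the 4 members that fell.

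The promoter of IFIT1 (GRCh38.p14, chr10:89392373-89392672, plus strand) is shown because it holds 2 matches to the core of the interferon-stimulated response element. Both lie on the opposite strand and are in capitals, the first 115 bases before the start.
IFIT1: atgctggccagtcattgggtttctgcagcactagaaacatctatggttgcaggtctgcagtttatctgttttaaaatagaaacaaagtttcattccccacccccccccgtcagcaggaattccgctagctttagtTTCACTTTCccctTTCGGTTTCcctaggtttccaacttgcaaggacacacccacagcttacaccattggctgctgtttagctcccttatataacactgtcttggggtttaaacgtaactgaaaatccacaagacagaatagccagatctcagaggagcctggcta
The core was searched as GAAANNGAA on both strands. It occurred in 30 of the 42 effectors with a promoter (71.4%), in 8.32% of all promoters and in 6.43% of those of tested genes. The members that hold it include genes that were not called or fell, such as MX1, EPSTI1, TRIM14, IFITM3 and BST2. Among promoters of genes that rose at least 2-fold the share was 7.95%.

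Most sensors of cytosolic nucleic acids rose, while the kinase downstream of them did not. RIGI, which encodes the RNA sensor RIG-I, had 71.4, 63.1 and 71.5 CPM in iR4 libraries, against 16.2, 17.9 and 16.9 CPM in Vehicle libraries, a log2 fold change of 2.02 (SE 0.06). CGAS, the DNA sensor, rose by 0.98, its adaptor STING1 by 0.85, the RNA sensor IFIH1 by 0.84 and the DNA sensor AIM2 by 1.78. TBK1, the kinase that acts downstream of both pathways, fell by 0.19, and IRF3, the factor it phosphorylates, was not called (-0.00). Over the sensing list 12 of 20 rose and 3 fell, with a median of 0.51. IRF7, which amplifies interferon production, rose by 1.93. Among genes of the interferon-activated complex ISGF3, STAT2 rose by 0.89 and IRF9 by 1.13; 14 of 21 receptor and JAK-STAT genes rose and 2 fell.

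Of the interferon genes themselves, IFNB1 had 3, 0 and 3 counts in the iR4 libraries and 0 in each Vehicle library, so the groups overlap at 0. IFNL1, a type III interferon, had 7, 3 and 3 counts in the iR4 libraries and 0 in each Vehicle library; with the Vehicle level set at the limit of 3 counts over its 3 libraries, the 13 iR4 counts were at least 3.97-fold higher, a bound that leaves out the counting error of the iR4 counts. Neither gene passed the filter for the test. IFNE, an epithelial interferon and the single tested member of that list, fell to 0.528, 0.364 and 0.392 CPM in iR4 libraries, against 2.62, 1.98 and 2.90 CPM in Vehicle libraries, a log2 fold change of -2.52 (SE 0.25). The APOBEC3 cytidine deaminases, which edit single-stranded DNA, rose in 5 of 5 tested members, with a median of 1.52 and with APOBEC3B at 43.0, 46.8 and 43.6 CPM in iR4 libraries, against 13.6, 15.1 and 15.6 CPM in Vehicle libraries.

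Antigen presentation genes rose by small factors. Of 26 genes of MHC class I presentation 19 rose and 5 fell, with a median of 0.36, and 1 rose at least 2-fold. B2M, the light chain of class I molecules, rose by 0.30. The 1 gene past 2-fold was ULBP1, a stress-induced ligand of the natural killer cell receptor NKG2D, with 34.3, 32.4 and 35.5 CPM in iR4 libraries, against 6.04, 7.14 and 5.50 CPM in Vehicle libraries (2.45, SE 0.08). Among 10 checkpoint ligands 8 rose and 1 fell; CD274, which encodes PD-L1, had 2.37, 2.44 and 2.78 CPM in iR4 libraries, against 0.535, 0.843 and 0.869 CPM in Vehicle libraries (1.74, SE 0.24). Both genes had groups that did not overlap, though CD274 is a low-count gene in either group.

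Genes for making ribosomes fell as a body. All 59 tested nucleolar ribosome biogenesis factors fell, 8 of them at least 2-fold, with a median of -0.73. NPM1, nucleophosmin, which has a structural and chaperone role in the nucleolus, had 1502, 1519 and 1445 CPM in iR4 libraries, against 3052, 3015 and 3109 CPM in Vehicle libraries, a log2 fold change of -1.04 (SE 0.04, edgeR adjusted p = 3.1e-18). PES1, which with BOP1 acts in maturation of the large subunit, had 124, 129 and 127 CPM in iR4 libraries, against 261, 273 and 261 CPM in Vehicle libraries (-1.07, SE 0.04). UTP20, a component of the early small-subunit processome, had 59.2, 61.0 and 58.9 CPM in iR4 libraries, against 144, 133 and 130 CPM in Vehicle libraries (-1.18, SE 0.04). In each of these genes every iR4 library lay far below every Vehicle library, and libraries of the same group were close together. Of 78 cytosolic ribosomal protein genes 77 fell, but by less, with a median of -0.40 and 1 at least 2-fold lower (RPS10, -1.11); RPL30 (-0.03) was not called. Mitochondrial ribosomal proteins fell in 59 of 76 genes, with a median of -0.30, and subunits of RNA polymerases I and III and their factors in 25 of 34, with a median of -0.31.

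High level went with a fall across the transcriptome, and these lists differ in level. In iR4 libraries the 78 cytosolic ribosomal protein genes took 5.04 to 5.30% of counts, and the 76 mitochondrial ones 0.527 to 0.536%. The protein-coding genes were split by level into 5 groups of equal size. In the group with the highest levels 20.4% rose and 65.8% fell, with a median log2 fold change of -0.21. In the group just below it 33.3% rose and 43.2% fell, with a median of -0.05. In the group with the lowest levels 40.2% rose and 17.1% fell, with a median of 0.25. EEF1A1, the elongation factor gene with the most counts in all 6 libraries, took 0.644 to 0.685% of counts in iR4 libraries, against 1.02 to 1.03% in Vehicle libraries. Genes that fell at least 2-fold made up 1.09% of the group with the highest levels, and 8 of 59 among the nucleolar factors. The part that level has in the fall of these lists was not tested.

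**Figure D3:**
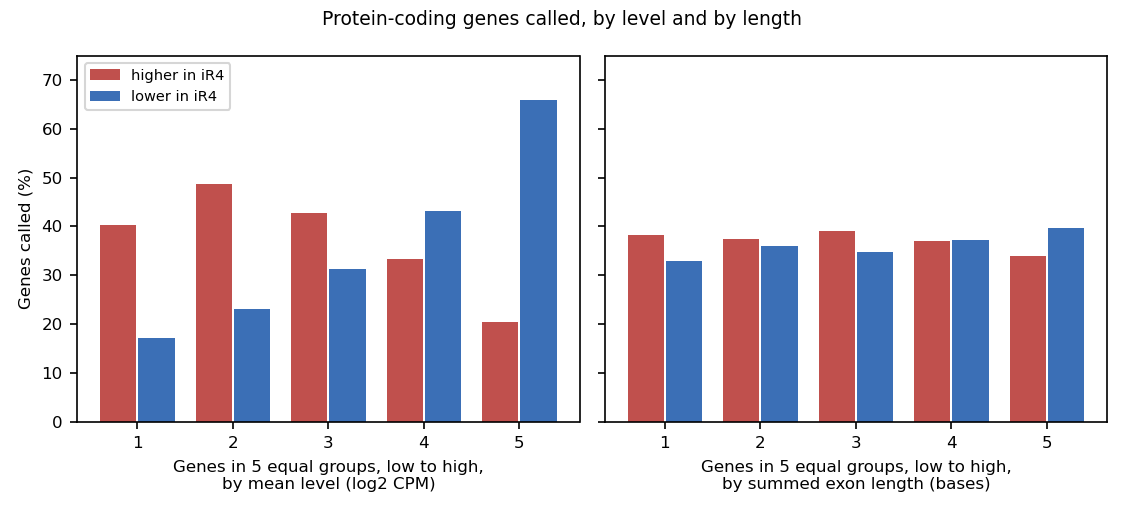
Share of protein-coding genes that rose (red) or fell (blue), in percent, in 5 equal groups of the genes ordered by mean level (left panel) and by summed exon length (right panel), from low to high. Rises outnumber falls in the 3 groups with lower levels and falls reach 65.8% in the top one, while across the length groups both shares stay between 33.0 and 39.7%.

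The promoter of UTP20 (GRCh38.p14, chr12:101279855-101280154, plus strand) is shown because UTP20 fell most of the nucleolar list; its E-box, a site that MYC and related factors can bind, is in capitals 10 bases before the start.
UTP20: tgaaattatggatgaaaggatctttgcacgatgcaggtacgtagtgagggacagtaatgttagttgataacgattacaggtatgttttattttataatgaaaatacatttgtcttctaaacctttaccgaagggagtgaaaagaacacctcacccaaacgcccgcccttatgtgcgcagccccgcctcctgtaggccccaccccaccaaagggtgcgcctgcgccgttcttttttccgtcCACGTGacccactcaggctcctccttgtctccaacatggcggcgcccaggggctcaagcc
The E-box was searched as CACGTG, which reads the same on both strands. It was found in 20 of 50 nucleolar factors with a promoter (40.0%). Shares were 7.41% of all promoters, 9.93% of tested genes' promoters and 8.39% of the 298 promoters of genes that fell at least 2-fold. MYC itself fell by 0.41, with 325, 340 and 347 CPM in iR4 libraries, against 459, 458 and 431 CPM in Vehicle libraries, and MXD1, which opposes MYC on such sites, rose to 71.7, 62.2 and 74.4 CPM in iR4 libraries, against 7.97, 11.2 and 9.37 CPM in Vehicle libraries (2.87, SE 0.09). Over the MYC network list 6 of 17 tested genes rose and 9 fell, with a median of -0.09. A part of MYC in the falls was not tested.

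Host genes of small nucleolar RNAs, whose introns hold the guides for ribosomal RNA modification, had the lowest median of the lists with at least 5 tested members. Of 18 tested hosts 17 fell (8 at least 2-fold), none rose, and the median was -0.95. SNHG3 had 20.5, 20.0 and 19.5 CPM in iR4 libraries, against 120, 114 and 111 CPM in Vehicle libraries, a log2 fold change of -2.52 (SE 0.05); its locus overlaps RCC1 on the same strand, so its reads may include that gene's. GAS5, a host whose RNA is turned over with translation, had 118, 118 and 115 CPM in iR4 libraries, against 274, 275 and 269 CPM in Vehicle libraries (-1.22, SE 0.03). SNHG1 fell by 0.46 and SNHG20 was not called (-0.02).

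Splicing and translation factors fell with them. Of 36 splicing factors 33 fell and 1 rose, with a median of -0.46, and of 47 translation factors 39 fell and 5 rose, with a median of -0.46. SRSF1, a serine-arginine splicing factor that also limits R-loop formation, had 162, 172 and 165 CPM in iR4 libraries, against 480, 482 and 475 CPM in Vehicle libraries, a log2 fold change of -1.53 (SE 0.03, edgeR adjusted p = 3.7e-22). CLK1, a kinase of such splicing factors, was the 1 member that rose (0.66). EIF4A1, the helicase of translation initiation, fell by 1.24, while PDCD4, which inhibits it, rose by 0.88. Constitutive proteasome subunits fell in 29 of 31 genes (median -0.36) and nuclear-encoded respiratory chain subunits in 52 of 74 (median -0.19).

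Factors that resolve or prevent R-loops leaned lower. Of 30 such genes 17 fell (56.7%) and 7 rose (23.3%), with a median of -0.24, beside 34.8% and 37.1% of all genes tested. RNASEH1, which digests the RNA of RNA:DNA hybrids, had 27.4, 25.7 and 26.7 CPM in iR4 libraries, against 45.5, 49.1 and 44.8 CPM in Vehicle libraries, a log2 fold change of -0.80 (SE 0.05). The hybrid helicase DHX9 fell by 0.80 and the helicase DDX21 by 0.82. RNASEH2A, the catalytic subunit of RNase H2, rose by 0.11, and BRCA1, which has a role in R-loop repair, by 0.50. GADD45A, also on this list, had its largest rise (1.96). It was the 1 member that rose at least 2-fold, while 2 fell at least 2-fold. Among 25 genes that write, erase or read m6A 18 fell and 2 rose, with a median of -0.22, none of them by as much as 2-fold; the eraser FTO fell by 0.59 and the methyltransferase subunit METTL3 by 0.18, and its partner METTL14 rose by 0.22. Of 16 RNA exosome genes 11 fell and 2 rose. In the group of protein-coding genes with the highest levels 65.8% fell, with a median of -0.21. The part of level in the falls of the R-loop, m6A and exosome lists was not tested.

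Genes of mitosis fell, while the inhibitors of the cell cycle moved in both directions. Of 53 mitotic and spindle genes 46 fell (7 at least 2-fold) and 1 rose, with a median of -0.52. PLK1, a kinase of mitotic entry and exit, had 80.9, 88.7 and 83.2 CPM in iR4 libraries, against 225, 224 and 202 CPM in Vehicle libraries (-1.37, SE 0.05). CCNB1, the mitotic cyclin, had 193, 200 and 191 CPM in iR4 libraries, against 466, 487 and 486 CPM in Vehicle libraries (-1.30, SE 0.04). In bulk RNA such a fall cannot be told apart from fewer cells in mitosis. Genes of DNA replication and the G1/S transition did not share it: 16 of 50 rose and 23 fell, none of them 2-fold, with a median of -0.05. CDKN1A, which encodes the CDK inhibitor p21, had 167, 170 and 166 CPM in iR4 libraries, against 38.5, 40.8 and 42.6 CPM in Vehicle libraries, a log2 fold change of 2.04 (SE 0.04), and CDKN2B, the inhibitor p15, rose by 2.12. CDKN1B, the inhibitor p27, fell to 46.5, 44.1 and 43.6 CPM in iR4 libraries, against 67.6, 68.8 and 66.3 CPM in Vehicle libraries (-0.59, SE 0.05). Over the list of cyclins, CDKs and CDK inhibitors, which holds CDKN2B and CDKN1B, 7 of 18 rose and 9 fell, with a median of -0.06.

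The promoter of CDC20, an activator of the anaphase-promoting complex that fell by 1.18, is shown as an example of the mitotic list (GRCh38.p14, chr1:43358731-43359030, plus strand). Capitals mark 2 matches to the cell cycle genes homology region, the first of them on the opposite strand and 178 bases before the start.
CDC20: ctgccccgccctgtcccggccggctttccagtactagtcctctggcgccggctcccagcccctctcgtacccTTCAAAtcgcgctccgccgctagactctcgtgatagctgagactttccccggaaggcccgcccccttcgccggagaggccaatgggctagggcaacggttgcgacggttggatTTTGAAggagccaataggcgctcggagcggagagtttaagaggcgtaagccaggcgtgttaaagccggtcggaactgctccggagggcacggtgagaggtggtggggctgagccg
The region was searched as TTTGAA on both strands. It was found in 35 of 47 mitotic genes with a promoter (74.5%), in 15.5% of all promoters, in 9.88% of those of tested genes and in 15.8% of the 298 promoters of genes that fell at least 2-fold.

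Targets of p53 were mixed, with 16 of 25 higher and 6 lower and a median of 0.42. Besides CDKN1A they included GADD45A, a growth arrest gene (1.96), BBC3, which encodes the BH3-only protein PUMA (2.55), and MDM2, the ubiquitin ligase of p53 (0.66); several of these are also induced by ATF4 or AP-1. XPC, a DNA damage sensor (-0.65), and ZMAT3, an RNA-binding protein (-0.46), fell. Among apoptosis regulators 20 of 31 rose and 4 fell, with PMAIP1, the BH3-only protein NOXA, at 131, 119 and 145 CPM in iR4 libraries, against 32.0, 31.1 and 34.4 CPM in Vehicle libraries (2.02, SE 0.06). Of 35 homologous recombination and Fanconi genes 18 rose and 7 fell, with a median of 0.16; RAD51B, which acts in strand exchange during recombination, was the 1 member that changed at least 2-fold (-1.49).

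Metabolic lists differed from each other. Of 36 genes of cholesterol and lipid synthesis 26 rose and 8 fell, with a median of 0.48. INSIG1, an inhibitor of sterol regulatory factors and itself their target, had 260, 250 and 233 CPM in iR4 libraries, against 48.5, 51.5 and 56.6 CPM in Vehicle libraries (2.24, SE 0.05). The fatty acid genes FASN (-0.48) and ACACA (-0.77) fell. SLC19A1, the reduced folate carrier, was among the largest falls, with 10.99, 10.04 and 9.35 CPM in iR4 libraries, against 74.1, 68.7 and 64.8 CPM in Vehicle libraries, a log2 fold change of -2.77 (SE 0.08); over the serine, folate and one-carbon list 9 of 26 rose and 14 fell. LDHA, lactate dehydrogenase, fell by 0.87 among glycolysis and hypoxia genes of which 11 of 29 rose and 14 fell. CYP1A1 and CYP1B1, the classical targets of the aryl hydrocarbon receptor, rose by 2.87 and 2.43. Autophagy and lysosome genes rose in 26 of 37, with the autophagy receptor SQSTM1 at 807, 772 and 813 CPM in iR4 libraries, against 253, 259 and 270 CPM in Vehicle libraries (1.61, SE 0.04).

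The epithelial character of the cells was kept in both groups while single keratins moved in opposite directions. All 9 epithelial markers were tested, and together they took 0.353 to 0.363% of counts in iR4 libraries and 0.333 to 0.342% in Vehicle libraries. None of the 9 leukocyte markers had enough counts to be tested, and CD3E and MS4A1, which mark T and B cells, were at 0 in both groups. The fibroblast markers, 4 of 7 tested, summed to 0.0035 to 0.0042% of counts in iR4 libraries and 0.0021 to 0.0024% in Vehicle libraries, with PDGFRA at 0 in both groups and COL1A1, a collagen chain, 0.67 higher in iR4. The melanocyte markers, 2 of 5 tested, summed to 0.0031 to 0.0034% in iR4 libraries and 0.0017 to 0.0020% in Vehicle libraries, with the defining enzyme TYR at 0 and MITF (0.69) and PMEL (0.63) higher, and of the endothelial markers, 2 of 5 tested, KDR was at 0 and CLDN5 rose by 1.21. The part of these markers in other results was not tested. KRT5, the keratin of basal keratinocytes, had 507, 532 and 484 CPM in iR4 libraries, against 866, 956 and 938 CPM in Vehicle libraries (-0.86, SE 0.04), and KRT17, a keratin of wounded or stressed epithelium, had 633, 598 and 612 CPM in iR4 libraries, against 364, 369 and 355 CPM in Vehicle libraries (0.76, SE 0.03). Among 24 basal and adhesion genes 9 rose and 11 fell, among 23 differentiation genes 7 rose and 6 fell, and among 38 mesenchymal genes 16 rose and 15 fell, with medians of -0.04, -0.02 and 0.08; SNAI2, a repressor linked to mesenchymal transition, rose by 1.48 while VIM, the mesenchymal filament vimentin, fell by 0.54.

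**Figure D4:**
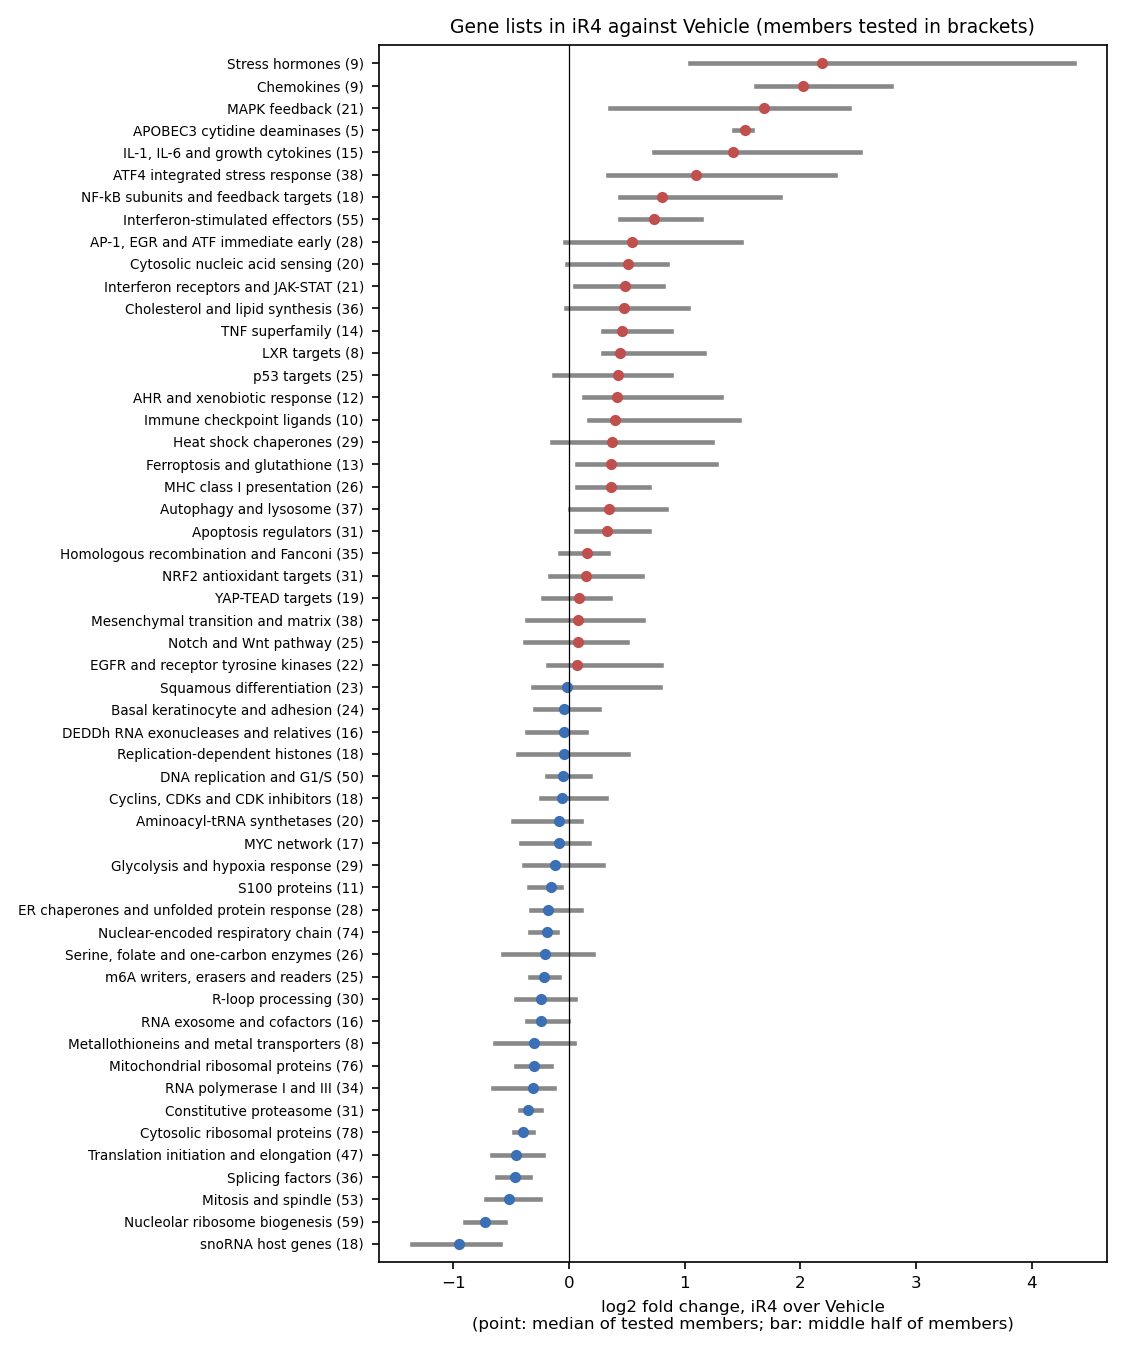
Median log2 fold change, iR4 over Vehicle, of each gene list with at least 5 tested members (point, red above 0 and blue below 0) with the interquartile range of its members (bar). The stress hormone list, chemokines and MAPK feedback genes lie highest, at 2.19, 2.03 and 1.68. The first of these lists also holds EGF receptor ligands. The snoRNA host genes and nucleolar factors lie lowest, at -0.95 and -0.73.

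Beyond the lists, the genes with the largest changes among those with a mean of at least 2 on the log2 CPM scale included genes named as long noncoding RNAs. LINC03040, which the annotation used for gene types lists as protein-coding, had 103, 83.6 and 92.5 CPM in iR4 libraries, against 5.24, 6.20 and 5.65 CPM in Vehicle libraries (4.03, SE 0.09). LINC01843, a lincRNA there, had 18.4, 16.5 and 15.9 CPM in iR4 libraries, against 0.802, 1.54 and 1.45 CPM in Vehicle libraries (3.73, SE 0.15). LINC00641, a processed transcript in that annotation, had 5.23, 3.64 and 5.22 CPM in iR4 libraries, against 44.5, 40.2 and 32.6 CPM in Vehicle libraries, and its log2 fold change of -3.04 (SE 0.12) was the largest fall among genes at this level. RNASE7, an antimicrobial ribonuclease of skin, rose by 3.63. LURAP1L, an adaptor-like protein, rose by 3.88, and TMEM45A, a membrane protein of keratinocytes, fell by 2.12.

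Setting the effect of iR4 against the loss of REXO4 asks how far the 2 interventions differ gene by gene. REXO4 averaged 9.39 ± 0.341 CPM in R4KO_1 cells and 6.30 ± 1.17 CPM in R4KO_2 cells, against 73.9 ± 3.19 CPM in Ctrl cells (SD, n = 3 each), log2 fold changes of -2.98 and -3.55, so its fall was smaller with iR4 by 2.33 and 2.91. In a fit over all 24 SCC1 libraries and 14585 genes, the iR4 effect was higher than the R4KO_1 effect in 2622 genes (18.0%) and lower in 2484 (17.0%); against R4KO_2 it was higher in 1626 (11.1%) and lower in 1331 (9.13%). The 2 tests share the iR4, Vehicle and Ctrl libraries, so their counts are not independent of each other. The batch, if any, in which each experiment was made is not labelled and cannot be told apart from the difference between iR4 and knockout.

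Members of the ATF4, MAPK feedback and heat shock lists mostly had a higher effect with iR4. Not all stress lists did so. Of 31 NRF2 targets 6 were higher and 8 lower than with R4KO_1, and 8 higher and 3 lower than with R4KO_2. For 25 p53 targets these numbers were 7 and 6, and 5 and 2. Of 38 ATF4 genes 31 had a higher effect with iR4 than with R4KO_1 and 32 than with R4KO_2, with median log2 fold changes of 1.10 for iR4, 0.20 for R4KO_1 and 0.37 for R4KO_2. CHAC1 rose by 3.90 with iR4 in this fit, against 0.48 in R4KO_1 and 1.28 in R4KO_2, differences of 3.42 (SE 0.23) and 2.62 (SE 0.22). Of 21 MAPK feedback genes 17 were higher than with R4KO_1 and 14 than with R4KO_2, and PHLDA1, a feedback protein of growth factor signalling, stood at 2.42 with iR4, against -0.64 in R4KO_1 and 0.46 in R4KO_2. Of 29 heat shock genes 21 were higher than with R4KO_1 and 16 than with R4KO_2; HSPA6 itself stood at 6.26 with iR4, against 1.66 in R4KO_1 and 5.21 in R4KO_2, and its difference from R4KO_2 was not called (1.05, SE 0.62, edgeR adjusted p = 0.25). PGF, a placental VEGF-family factor, stood at 2.25 with iR4, against -0.38 in R4KO_1 and 0.03 in R4KO_2.

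Interferon and sterol lists leaned the other way. Of 55 interferon-stimulated effectors 6 were higher and 23 lower with iR4 than with R4KO_1, and 2 higher and 19 lower than with R4KO_2; IFIT1 stood at 1.53 with iR4, against 2.06 in R4KO_1 and 2.19 in R4KO_2, differences of -0.53 (SE 0.13) and -0.65 (SE 0.13). Of 36 cholesterol and lipid genes 4 were higher and 23 lower with iR4 than with R4KO_1, and 4 higher and 15 lower than with R4KO_2. BMF, a BH3-only apoptosis gene, stood at 1.25 with iR4, against 3.14 in R4KO_1 and 3.16 in R4KO_2, and SLC19A1 stood at -2.77 with iR4, against -1.29 in R4KO_1 and -2.09 in R4KO_2. Of 59 nucleolar factors 12 had a higher and 4 a lower effect with iR4 than with R4KO_1. Against R4KO_2 14 had a higher and 2 a lower effect. The list medians were -0.73 for iR4, -0.81 for R4KO_1 and -0.81 for R4KO_2. For cytosolic ribosomal proteins the effect was higher with iR4 than with R4KO_1 in 17 of 78 genes and lower in 6. Against R4KO_2 it was higher in 45 and lower in 0. All tested members of both lists had log2 fold changes below 0 with iR4, so a higher effect here means a smaller fall. The shares over all 14585 genes were 18.0% higher and 17.0% lower against R4KO_1, and 11.1% and 9.13% against R4KO_2.

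**Figure D5:**
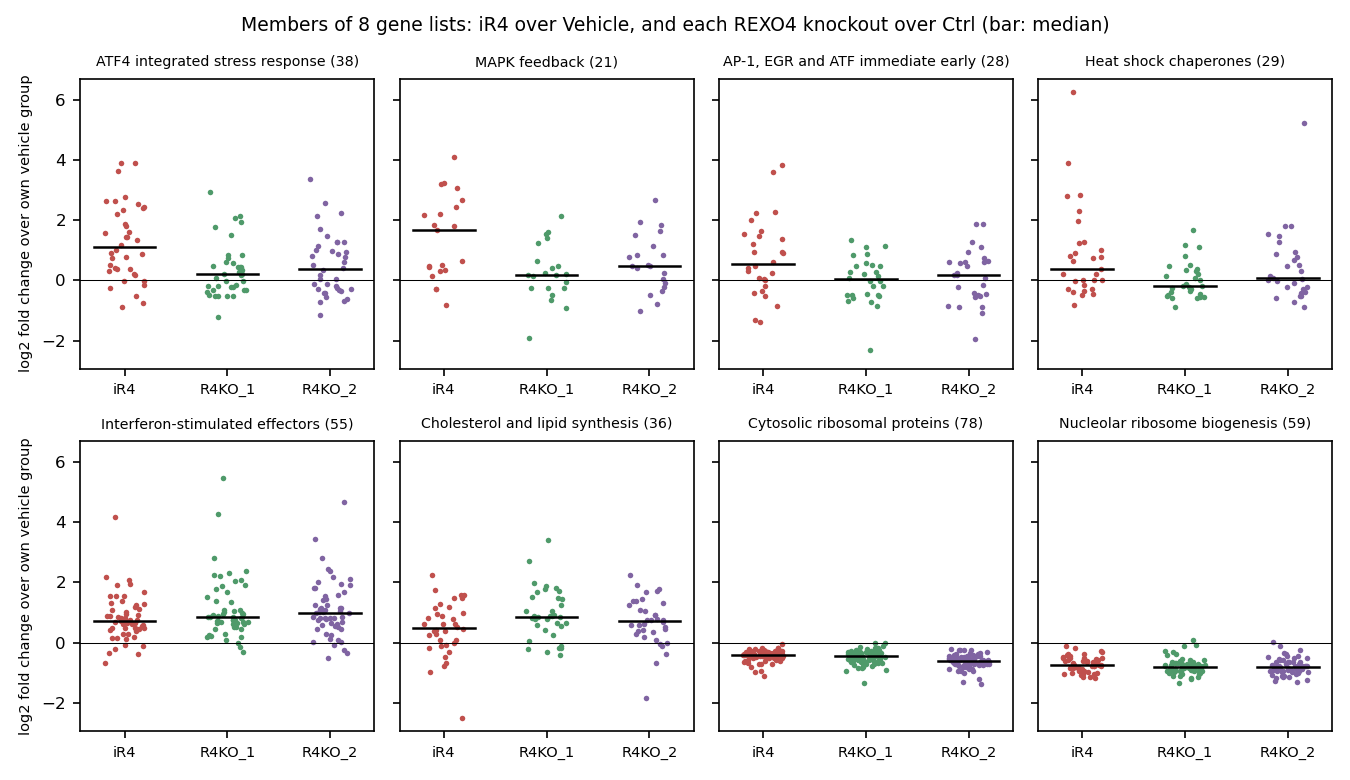
Log2 fold changes of the members of 8 gene lists, 1 point per gene, for iR4 over Vehicle (red), R4KO_1 over Ctrl (green) and R4KO_2 over Ctrl (purple), with a bar at the median. The ATF4 and MAPK feedback medians stand at 1.10 and 1.68 with iR4, above both knockouts, the interferon and cholesterol medians stand lowest with iR4, and the nucleolar and ribosomal protein members lie below 0 in nearly all cases.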

How the data were processed

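Total RNA was selected for poly(A), made into cDNA libraries and sequenced, per the labels' protocols, although the labels name the molecule genomic DNA. The authors deposited whole-number read counts per Ensembl gene for each library, not normalized. The submitters' processing notes name, with no role given, the builds hg38 and mm10 and the programs HISAT2 2.2.1, FastQC 0.11.9, DESeq2 1.42.0, featureCounts 2.0.1 and Trim Galore 0.6.4; the sources used here do not state whether reads were counted by strand, so overlapping genes and near-identical copies are uncertain. Where an identifier had several symbols it was kept as 1 row. The 14 mitochondrial genes listed had 0 counts.

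Genes were kept with edgeR's filterByExpr (minimum count 10), scaled by TMM and tested with edgeR 4.0.16 (R 4.3.3) by quasi-likelihood over 9 libraries (iR4, Vehicle, H151_iR4), with the contrast iR4 minus Vehicle, Benjamini-Hochberg adjustment and a threshold of 0.05. Differences from the knockout effects were contrasts in 1 fit over all 24 SCC1 libraries, which include the groups H151_iR4, KO_2_H151 and KO_2_BX_795. With 3 against 3 libraries an exact two-sided permutation test cannot go below 0.1, so single genes were judged by the model alone. Replicates of a group differed by more than counting noise, so none was treated as a duplicate. The labels do not say whether replicate numbers pair the groups, and the main test did not pair them. Deviations of iR4 and Vehicle libraries correlated between -0.04 and 0.04, which shows no shared replicate effect but cannot exclude pairing. Counts were also simulated, with the Vehicle means in every group and only 50 genes changed at each fold. For iR4 against Vehicle (13681 genes tested) the test recovered 92% of 1.5-fold, 96% of 2-fold and 100% of 4-fold changes. It made 13 false calls. For the difference from R4KO_1 (14026 genes) it recovered 70%, 94% and 100%, with 6 false calls. In the deposited counts 71.9% of genes were called, so the simulation does not give their rates of recovery or of false calls. Intervals of low counts cover counting error only.

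The members, the 55 pathway lists and the 5 marker lists were chosen with earlier results of these data known, so they support nothing beyond their values. Genes named are REXO4, the 12 largest rises and falls at a mean log2 CPM of at least 2 without overlap, members picked for their role, the most clearly called member of each list in each direction, genes with at most 3 counts in one group and at least 60 in the other, and the 5 largest differences from each knockout in each direction; other list members are also given by their values. Promoters (250 bases before to 50 after the start; where a gene has several, the most upstream) came from RefSeq, GRCh38.p14. Alternatives tried were other scaling factors, DESeq2, other filters, 6 or 24 libraries in the fit, a replicate block, a minimum fold of 1.2 and leaving out each library. Some genes are not reported here.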

Additional observations from a re-analysis of the deposited data

How the results depend on the processing

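No gene called in iR4 against Vehicle or in the differences from the knockouts changed sign under any alternative run, but values close to 0 did: with upper-quartile factors the medians of the squamous differentiation, basal and adhesion, and DEDDh exonuclease lists came to 0.03, 0.001 and 0.0004, and 34 of 55 list medians moved by more than the spread between iR4 libraries. With RLE factors, upper-quartile factors, DESeq2, no filter, a filter of at least 1 CPM in 3 libraries, and 6 or 24 libraries in the fit, between 4623 and 5608 genes rose and between 4445 and 5090 fell, and higher calls made up 50.1 to 55.8% of all calls, the upper value with upper-quartile factors, which shifted the median of all genes by 0.04. DESeq2 kept 9220 of the 10072 calls in the same direction. Testing against a minimum fold of 1.2 left 3327 genes higher and 2673 lower, so many calls rest on small changes, and 46 of 110 counts of list members moved by over 1.5 times; genes that fell then numbered 8 in the m6A list, 18 in the respiratory chain, 35 among mitochondrial ribosomal proteins and 10 in the R-loop list, and 8 of the recombination and Fanconi genes rose. Leaving out each of the 6 libraries in turn gave 4910 to 5071 higher and 4657 to 4737 lower; for the difference from R4KO_1 it gave 2319 to 2502 and 2206 to 2365, and from R4KO_2 1304 to 1538 and 1074 to 1213. For R4KO_1 the balance of the directions depended on the scaling: RLE factors gave 2468 higher and 2598 lower, and DESeq2 2226 higher and 2374 lower. With the replicate number as a block 5196 genes rose and 4862 fell, 10008 of the 10072 calls remained, and of the 110 counts of list members 1 moved by over 1.5 times, the splicing factors that rose, with 2 in place of 1. Among the genes named, calls that were lost or gained lay near the threshold, such as HSPA5 (lost with DESeq2, adjusted p = 0.096, and without iR4 replicate 3). Depth limits statements on interferon and chemokine genes with few counts, for which a change is bounded only by counting error.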

Other observations

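The counted gene types are given by their calls, with no test between types. Of 272 tested lincRNAs 140 rose and 37 fell (median log2 fold change 0.51). Of 386 antisense RNAs 169 rose and 44 fell (median 0.35), whereas 4757 of 12822 protein-coding genes rose and 4631 fell, with a median of 0.01. Shares of calls moved with level among protein-coding genes too: in the group with the lowest levels 40.2% rose and in the next group 48.7%, beside 51.5% of the lincRNAs and 43.8% of the antisense RNAs, and the part of level in the calls of noncoding RNAs was not tested. Without strand in the counting, an antisense RNA cannot be told apart from the gene opposite. Small nucleolar RNAs that were counted in these poly(A)-selected libraries went the other way, with 20 of 28 lower (19 of them at least 2-fold), 1 higher and a median of -1.45; most lie inside host genes, whose reads they can share. Processed pseudogenes, which resemble their parent mRNAs, fell in 79 of 180 and rose in 19, with a median of -0.34.

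Some genes were present in 1 group alone or nearly so. NWD2, a gene with roles known mainly from neurons, had 131 counts over the iR4 libraries and 1 over the Vehicle libraries, a depth-adjusted ratio of 120 (95% exact interval 21.2 to 4781). SPRR2D, a small proline-rich protein of the cornified envelope, had 71 counts in iR4 and 1 in Vehicle libraries, a ratio of 65.1 (11.3 to 2608), NEURL3, an inducible ubiquitin ligase, had 85 in iR4 and 2 in Vehicle libraries, a ratio of 39.0 (10.5 to 327), and COL20A1, a collagen chain, had 90 in iR4 and 3 in Vehicle libraries, a ratio of 27.5 (9.12 to 136). Of 2 noncoding genes without a symbol, ENSG00000249328 had 221 counts in iR4 and 3 in Vehicle libraries, a ratio of 67.6 (22.8 to 330), and ENSG00000229261, antisense to HKDC1, had 133 in iR4 and 2 in Vehicle libraries, a ratio of 61.0 (16.6 to 509). LINGO2, a neuronal membrane protein, ran the other way, with 1 count over the iR4 libraries and 62 over the Vehicle libraries, a ratio of 0.0148 (0.000369 to 0.0855). TNF, the cytokine, had 11 counts over the iR4 libraries, a mean of 0.166 CPM, and 0 over the Vehicle libraries. With the Vehicle level set at the limit of 3 counts over its 3 libraries, the 11 iR4 counts were at least 3.36-fold higher. This bound leaves out the counting error of the iR4 counts. Its feedback gene TNFAIP3 stood at 47.0 ± 3.89 CPM in iR4 cells, against 6.76 ± 1.03 CPM in Vehicle cells (SD, n = 3 each).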
